A study of Mus musculus with 12 samples.

Results

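The 9 genes described here encode parts of the BMP pathway and its immediate targets: the ligands Bmp5 and Bmp7, the receptors Bmpr1a, Bmpr1b and Bmpr2, and the targets Id1, Id2, Id3 and Id4. Each was taken with its gene body and 100 kb to either side on mm10, and a peak summit belonged to the gene when it lay in that window. The 9 windows did not overlap, spanned 2.55 Mb in all and were chosen out of 21938 protein-coding genes. They held 38 of the 16193 β-catenin summits of the wild-type consensus list. They also held 82 of its 31428 H3K27ac summits.

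Forelimb buds of wild-type Swiss Albino embryos were used for ChIP-seq, 6 h after injection of C59 or of DMSO as control at E10.5. Control injections held DMSO in PBS, while the C59 stock in DMSO was diluted in a vehicle that also held methylcellulose and Tween-20. The solutions thus differed in more than C59, so C59 and its vehicle cannot be told apart. C59 inhibits porcupine, an enzyme needed to secrete WNT ligands, and all groups shared the genotype, tissue and stage. β-catenin, the nuclear effector of WNT signaling, and H3K27ac, a histone mark of active promoters and enhancers, were each profiled in 2 replicates per treatment from pooled forelimb buds. The 2 replicates of a group are labelled as separate samples, so differences are set against the spread between these samples only. Whole buds hold several cell types, and fewer cells of a type cannot be told apart from less binding per cell.

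BMP ligands bind complexes of type I receptors, such as BMPR1A and BMPR1B, and type II receptors, such as BMPR2, whose kinases phosphorylate receptor SMADs. These enter the nucleus with SMAD4 and activate targets, among which the Id genes are the classical example. ID proteins lack a DNA-binding domain and hold basic helix-loop-helix factors off DNA. In the limb bud, BMPs act from the ectodermal ridge and the interdigital mesenchyme, and BMPR1B marks the condensations of the digits. WNT signaling reaches genes through β-catenin bound to TCF/LEF factors, which recognise the core ATCAAAG or TTCAAAG.

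The core lay in the 200 bp around 8 of the 38 β-catenin summits, at 4 of the 9 genes. The strongest such summit of each of these genes is shown to place the core beside its position, with the core in capitals and 17 bases to either side, read 5′ to 3′ on the strand of the core (RefSeq genome of GRCm38). The Bmp7 site lies at chr2:172933978-172934018 on the minus strand, in an intron of the gene 6.12 kb downstream of the transcriptional start site (TSS). The Bmpr1a site lies at chr14:34548990-34549030 on the plus strand, in an intron of the neighbouring gene Ldb3, 45.7 kb upstream of the Bmpr1a TSS. The Bmpr1b site lies at chr3:141923703-141923743 on the minus strand, in an intron of the gene 7.81 kb downstream of its nearest TSS. The Id3 site lies at chr4:136135187-136135227 on the plus strand, between genes and 8.25 kb upstream of the Id3 TSS.
Bmp7: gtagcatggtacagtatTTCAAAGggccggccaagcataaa
Bmpr1a: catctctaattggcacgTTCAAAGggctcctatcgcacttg
Bmpr1b: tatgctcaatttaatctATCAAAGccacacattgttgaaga
Id3: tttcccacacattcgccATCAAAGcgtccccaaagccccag

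The 8 cores comprised 5 of TTCAAAG and 3 of ATCAAAG, and their centres lay 11 to 63 bp from the summits. The share of 21.1% (8 of 38, 95% Wilson interval 11.1 to 36.3%) stood beside 28.6% of all 16193 wild-type summits, whose windows have the same length, and that value lay inside the interval. The cores were at Bmp7 (3 summits), Bmpr1b (3), Bmpr1a (1) and Id3 (1). The letters were not found in the windows at Bmp5, Id1, Id2 and Id4. All such intervals cover the counting error alone.

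The H3K27ac lists were checked against marker genes by a summit less than 1 kb from a TSS. All 7 limb mesenchyme markers, Tbx5 among them, had one in all 4 replicate lists. None of the 4 ectodermal markers had one in any list, and the same held for the 2 blood, 2 neural and 3 heart or liver markers. The muscle precursor gene Lbx1 and the hindlimb gene Tbx4 had one in all 4 lists, Pax3 in 2 and the endothelial gene Cdh5 in 3, whereas Myod1, Pitx1 and Kdr had none. On chromosomes 1 to 19, X and Y, the β-catenin lists of wild-type controls held 20154 and 25770 summits and those after C59 held 283 and 315. The H3K27ac replicate lists held 33131 to 37886 summits.

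After C59, β-catenin peaks were no longer called at any of the 9 genes. Their windows held 45 and 63 summits in the 2 wild-type replicates and 0 and 0 after C59. With 2 replicates against 2 the exact two-sided permutation test gave p = 0.33, the smallest it allows. At 8 of 9 genes both wild-type replicates held more summits than both C59 replicates, beside 82.8% of the 17238 protein-coding loci with a summit in any of the 4 lists, so the members behaved as most loci did. The exception was Bmpr2, with 0 and 3 summits in the wild-type replicates. The plot of summits by locus shows these counts.

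**Figure D1:**
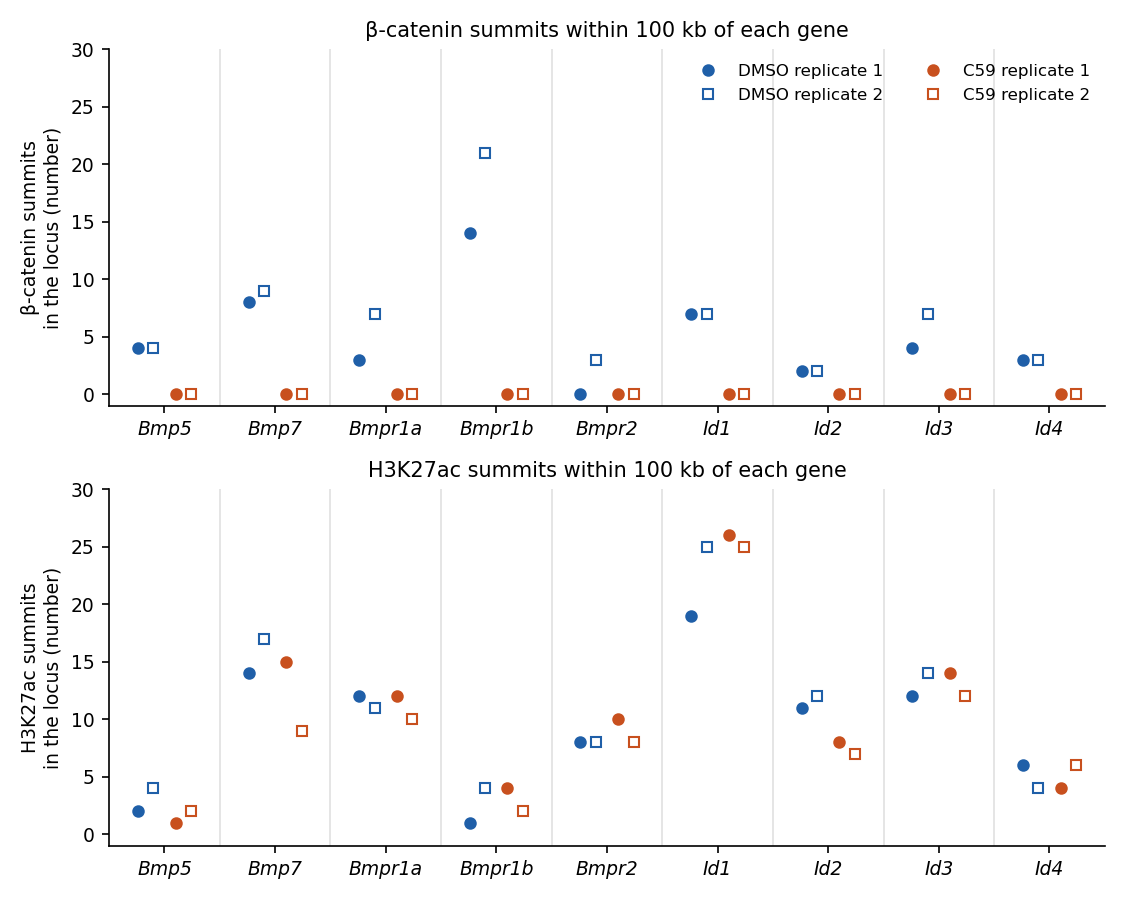
Number of β-catenin (top) and H3K27ac (bottom) summits within 100 kb of each gene, as 1 point per replicate list (DMSO blue, C59 orange; filled circle replicate 1, open square replicate 2). All β-catenin points after C59 are at 0, while the H3K27ac points of both treatments overlap at 8 of 9 genes.

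Consensus summits were found in wild-type controls at 8 of 9 genes, beside 58.8% of all 21938 protein-coding loci. The windows of long genes are longer, and Bmpr1b, with the largest window of 532 kb, also held the most summits. None of the 38 consensus summits lay in a peak of either C59 replicate (0 of 38, which allows a share of up to 7.89%), beside 97.7% of all wild-type summits that were not in a C59 peak. The C59 lists began at a higher limit than the wild-type lists. Their lowest −log10 p was 5.69 and 5.76, against 3.89 and 3.79, and at background coverage their lowest listed fold enrichment was 4.11 and 4.15, against 3.40 and 3.11. Therefore, the summits were also restricted to the 30 that passed the C59 limit in both wild-type replicates, an alternative chosen after seeing the data. Of these, 0 of 30 lay in a C59 peak, which allows a share of up to 10%, beside 369 of 13937 (2.65%) over the genome.

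The fold enrichment at a summit is the coverage over the coverage expected at that place by the peak caller, with 1 added to each. It ranged from 2.78 to 16.0 among the 38 consensus summits, with a median of 6.46 beside 6.76 for all wild-type summits, and 18 of the 38 lay above that overall median. Between the replicates, 21 of 38 were higher in replicate 2, with a median ratio of replicate 2 to replicate 1 of 1.07 and a range from 0.697 to 1.83. These consensus values are the authors' pooled values and carry no error of their own. The replicate values are therefore given for the summits named.

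Among the ligands, Bmp7 held the most β-catenin summits, with 8 and 9 summits in the wild-type replicates and 6 in the consensus. BMP7 is a ligand of the limb mesenchyme and ectodermal ridge. Its strongest summit, at position 172933973 of chromosome 2, is the strongest of all 38. It had a fold enrichment of 16.0 in replicate 1 and 14.8 in replicate 2, with a coverage of 121 and 127 fragments, and its core (TTCAAAG, printed above) was centred 25 bp away. By fold enrichment it stood at the 95.8th percentile of all wild-type consensus summits. Another, 151 kb downstream of the TSS, had 11.1 and 10.4 and no core. One in an intron, 14.9 kb downstream, had 9.06 and 8.05.

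Near the Bmp7 TSS a weaker summit lay 766 bp downstream, in an intron, with a fold enrichment of 4.60 and 3.91. It is shown because it joins a core, an H3K27ac peak and a promoter. Its core is centred 25 bp from the summit at chr2:172939331-172939371 (minus strand, core in capitals).
Bmp7 TSS: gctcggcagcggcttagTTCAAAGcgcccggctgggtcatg

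Bmp5, a related ligand, held 4 and 4 summits in the replicates and 3 in the consensus, all within 24 kb of its TSS. The strongest was 5.61 kb downstream, in an intron, with a fold enrichment of 8.62 and 6.76. One summit lay 93 bp upstream of the TSS, with 5.41 and 4.27. This was a promoter that had no H3K27ac summit in any list, and its bases are shown with the summit in capitals and 50 bases to either side (chr9:75775221-75775321, plus strand). The core was not among these letters.
Bmp5 TSS: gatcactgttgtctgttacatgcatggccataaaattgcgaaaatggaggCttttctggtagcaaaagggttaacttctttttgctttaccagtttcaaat

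Among the receptors, Bmpr1b, the type I receptor of the digit condensations, held 14 and 21 summits and 12 in the consensus, of which 8 lay in its introns. The strongest was 69.1 kb upstream of its nearest TSS, with a fold enrichment of 10.4 in replicate 1 and 13.7 in replicate 2. Its TSS neighbour among coding genes was Pdlim5, 8.04 kb away. An intronic summit 70.0 kb downstream had 8.48 and 10.1. The summit with the Bmpr1b core printed above had 6.47 and 10.4, so the replicates differed by more than at most other summits. A nearby intronic summit, 10.1 kb downstream of the same TSS, had 8.01 and 9.35.

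Bmpr1a, the widely expressed type I receptor, held 3 and 7 summits and 3 in the consensus, of which 0 had Bmpr1a as the nearest coding TSS. The summit with the core, in an intron of Ldb3, had 4.59 and 6.76. Another in an intron of Ldb3 had 5.45 and 4.22, and the last lay 29 bp from the TSS of Glud1, with 3.44 and 3.79. Bmpr2, the type II receptor, held 0 and 3 summits, and no summit in the consensus.

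Among the targets, Id3 held the strongest summit, 18.6 kb downstream of its TSS, with a fold enrichment of 10.2 and 12.3. It had no core, and its nearest coding TSS was that of E2f2. The summit with the Id3 core printed above had 7.77 and 7.36 and lay in an H3K27ac peak. A summit 73 bp upstream of the Id3 TSS was the weakest of the 38, with 3.13 and 2.64. Its bases are shown with the summit in capitals (chr4:136143374-136143474, plus strand), for comparison with the Bmp5 promoter.
Id3 TSS: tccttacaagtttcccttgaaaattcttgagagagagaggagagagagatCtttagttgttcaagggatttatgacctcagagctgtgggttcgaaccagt

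Id2 held a single consensus summit, 1.60 kb upstream of its TSS, and the replicates came close, at 9.40 and 9.51 with a coverage of 53 and 61 fragments. It lay in an H3K27ac peak in both treatments. Id1 held 7 and 7 summits and 6 in the consensus, of which 2 had Id1 as the nearest coding TSS and 2 lay in the neighbouring gene H13. Its strongest, 3.22 kb downstream of the TSS, had 5.96 and 7.68. The Id4 summits (3 and 3, 3 in the consensus) were weak, and the strongest, 33.3 kb upstream, had 5.25 and 5.87.

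**Figure D2:**
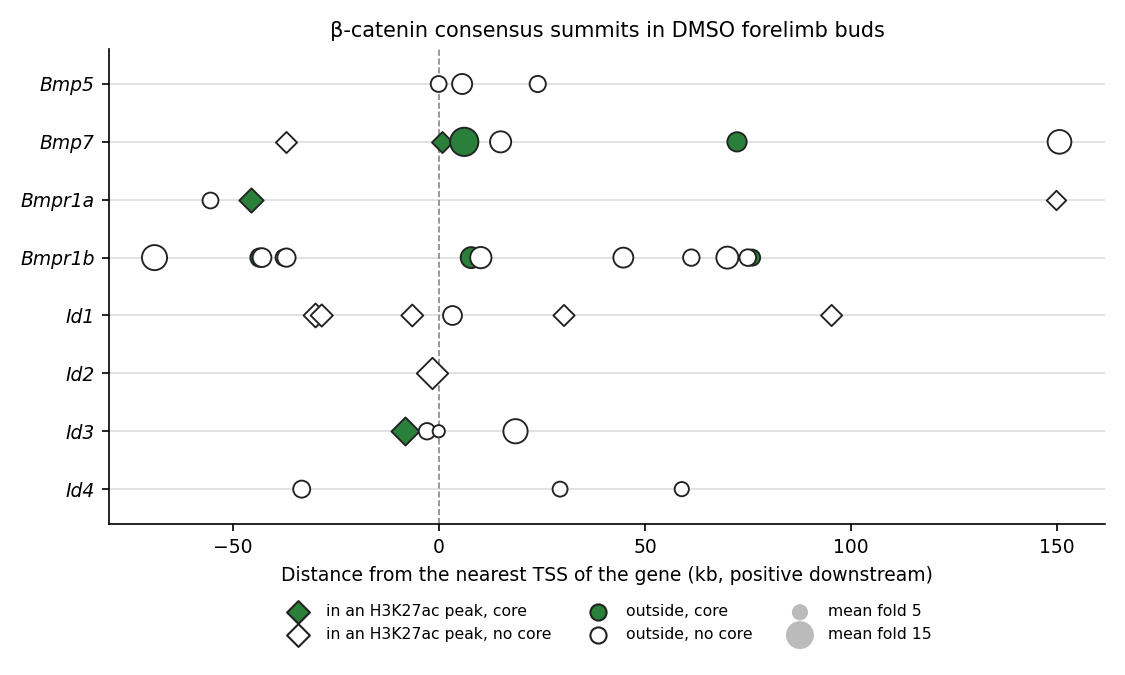
Distance (kb) of each of the 38 wild-type consensus β-catenin summits from the nearest TSS of its gene, with the area of a symbol in proportion to the mean fold enrichment of the 2 replicates. Diamonds lie in an H3K27ac peak of wild-type controls (11 summits) and green symbols have a TCF/LEF core (8 summits); Bmpr2 has no consensus summit.

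Most of these summits were distal. Among the 38, 6 (15.8%, 95% Wilson interval 7.44 to 30.4%) were less than 1 kb from any annotated TSS, beside 16.3% of all wild-type summits. 3 of them were at a member TSS, at Bmp5, Bmp7 and Id3, so 3 of 9 members carried promoter β-catenin, beside 9.04% of all protein-coding genes. These promoter summits were weak, at the 15.4th (Bmp5), 15.3th (Bmp7) and 0.179th (Id3) percentile of fold enrichment among all wild-type consensus summits. The Id3 summit, with a −log10 p of 5.17 and 3.94 in the replicates, did not reach the C59 limit. By annotation, 18 of the 38 were intergenic, 16 in introns, 3 in a UTR and 1 in a non-coding gene. The member was the nearest coding TSS for 26 of the 38.

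H3K27ac overlapped β-catenin at 11 of the 38 summits (28.9%, 95% Wilson interval 17.0 to 44.8%), beside 22.1% of all wild-type summits, a value inside the interval. The overlap was uneven among the windows, at 5 of 6 summits of Id1, 2 of 6 of Bmp7, 2 of 3 of Bmpr1a, 1 of 4 of Id3, 1 of 1 of Id2, and 0 of 12 of Bmpr1b, 0 of 3 of Bmp5 and 0 of 3 of Id4. Most of the overlapping summits had another gene as the nearest coding TSS. These genes were H13, Cox4i2 and Bcl2l1 in the Id1 window, Spo11 in the Bmp7 window, and Glud1 and 9230112D13Rik in the Bmpr1a window. 3 of the 8 summits with a core lay in an H3K27ac peak. Counted against the C59 H3K27ac list, 12 of 38 summits lay in a peak, beside 23.0% of all wild-type summits. After C59, β-catenin was no longer called at any of the 12, nor at 97.7% of all wild-type summits.

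H3K27ac itself was largely called at the same places after C59. The windows held 85 and 99 summits in the wild-type lists and 94 and 81 in the C59 lists, and the groups overlapped (exact two-sided permutation test, p = 0.67). Of the 53 H3K27ac regions in the wild-type consensus, 49 overlapped a region of a C59 replicate (92.5%, 95% Wilson interval 82.1 to 97.0%), and the other 4 were 1 each at Bmp5, Bmp7, Id1 and Id2. Over the genome 4.70% of wild-type regions were without such an overlap. In the other direction, 44 of 46 C59 regions overlapped a wild-type region (95.7%), and 3.43% of all C59 regions did not. With replicate 2 alone as the wild-type list, without DMSO replicate 1, the share of member regions was 75.4% (52 of 69). No genome share was taken under that setting, so this value cannot be set against the 4.70%.

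Id2 was the gene at which H3K27ac summits were fewer in both C59 replicates. It held 11 and 12 in the wild-type replicates, against 8 and 7 with C59. At the other 8 the replicates of the treatments overlapped, so 1 of 9 was lower and 0 of 9 higher, beside 14.2% of loci lower and 5.71% higher over the genome. This count rests on single libraries. It was 3 without DMSO replicate 1 (Bmp5, Bmp7 and Id2) and 3 without C59 replicate 1 (Bmp7, Bmpr1a and Id2). Without C59 replicate 2 it was 2 (Bmp5 and Id2). Leaving out a library makes the rule easier to meet at any locus, and no genome share was taken under these settings.

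Less than 1 kb from a TSS of Id2 the wild-type replicates listed 3 and 3 summits and the C59 replicates 1 and 0. The fold enrichment of the highest was 2.15 and 1.86 in wild-type controls and 2.01 in C59 replicate 1, while C59 replicate 2 listed none. The solved coverage over the library background was high there, at 21.9 and 21.1 in wild-type controls and 24.9 in C59 replicate 1, so that the low fold goes with a high expected coverage in this acetylated stretch. A distal region at chr12:25124364-25124879 was called in both wild-type replicates, with a fold enrichment of 3.53 and 3.47, and in no C59 replicate. Another distal region, at chr12:25190213-25190494, had 3.30 and 3.33 and was listed in C59 replicate 2 at 2.63 but not in C59 replicate 1. A pair of upstream regions was called in all 4 lists. The one that holds the β-catenin summit had 2.18 and 3.02 in the wild-type replicates, and 2.45 and 2.71 after C59. The region 2.43 kb upstream had 6.10 and 5.60, and 6.02 and 5.85 after C59.

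At promoters, 7 of 9 genes had an H3K27ac summit less than 1 kb from a TSS in all 4 lists, beside 50.6% of all protein-coding genes. Id2 had one in 3 lists and Bmp5 in 0. Bmp5 and Id3 thus carried β-catenin less than 100 bp upstream of the TSS with a different H3K27ac state. The promoter plot shows the values in each library.

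**Figure D3:**
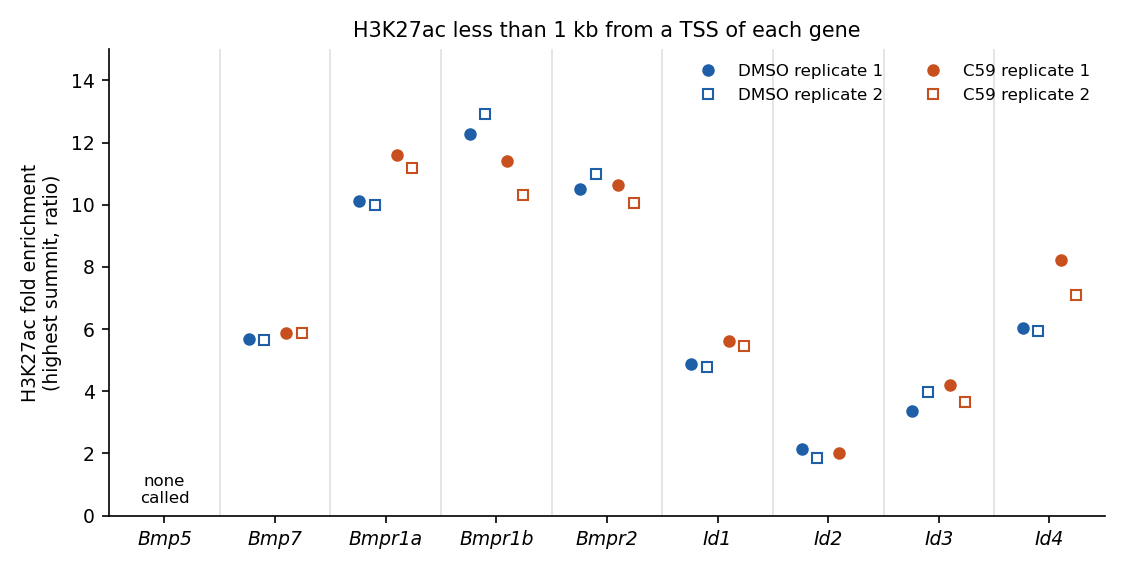
Fold enrichment (ratio) of the highest H3K27ac summit less than 1 kb from a TSS of each gene, as 1 point per replicate list (DMSO blue, C59 orange; filled circle replicate 1, open square replicate 2). Bmpr1b has the highest values in the DMSO lists (12.3 and 12.9) and Bmpr1a in the C59 lists (11.6 and 11.2), Id2 has no point for C59 replicate 2 and Bmp5 has no summit in any list.

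The fit was run with limma on the log2 fold enrichment of all 17475 H3K27ac regions called in all 4 replicate lists, of which 42 lay in the 9 windows. None of the 17475 passed an adjusted p of 0.05 (0%, Benjamini-Hochberg), and 1777 (10.2%) had an unadjusted p below it, as did 8 of the 42. The lowest adjusted p among the 42 was 0.40. No member region can therefore be called changed. The median difference, C59 minus wild-type control, was 0.04 on the log2 scale for the 42 regions and 0.03 for all regions. After centring on the library medians, 7 of 42 were lower in both C59 replicates than in both wild-type replicates and 14 of 42 were higher, beside 17.0% lower and 25.9% higher of all regions.

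None of the promoter regions of the receptors passed the test. At Bmpr1a the fold enrichment was 10.13 and 9.996 in the wild-type replicates, and 11.6 and 11.2 after C59 (log2 difference 0.20 ± 0.11, SE, limma adjusted p = 0.57). At Bmpr1b it was 12.3 and 12.9, and 11.4 and 10.3 after C59 (−0.19 ± 0.11, limma adjusted p = 0.59). At Bmpr2 it was 10.49 and 11.0, and 10.6 and 10.1 after C59 (−0.03 ± 0.11, limma adjusted p = 0.95). On the centred values of the fit the replicates of the treatments did not overlap at any of the 3 promoters. The values were higher after C59 at Bmpr1a and lower at Bmpr1b and Bmpr2, beside 25.9% higher and 17.0% lower of all 17475 regions. Uncentred, the values of Bmpr2 overlapped. The difference at Bmpr1b turned to 0.14 when coverage over the library background replaced fold enrichment. At the Bmp7 promoter the values were 5.67 and 5.66, and 5.88 and 5.86 after C59 (0.08 ± 0.11, limma adjusted p = 0.83), and the difference turned to −0.31 on the coverage scale. Less than 1 kb from a Bmp7 TSS the wild-type replicates listed 4 and 5 H3K27ac summits and the C59 replicates 3 and 1. At Id1 such summits went the other way, from 1 and 2 to 3 and 3. No genome share was taken for these promoter counts.

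At Id4, 2 regions next to the TSS went in opposite directions, neither past the threshold. The region over the TSS (chr13:48261081-48262107) had 5.82 and 5.94 in the wild-type replicates, and 8.22 and 7.09 after C59. The small region 444 bp upstream (chr13:48260496-48260784) had 6.05 and 5.68, and 2.54 and 4.37 after C59. The log2 differences were 0.40 ± 0.11 and −0.79 ± 0.28 (SE, limma adjusted p = 0.42 and 0.46). The size of the second rests on single C59 libraries, since it was −0.35 without C59 replicate 1 and −1.23 without C59 replicate 2 (limma adjusted p = 0.57 and 0.54).

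The promoter regions of Id1 and Id3 had lower folds than those of the receptors and did not pass the test. At Id1 the fold enrichment was 4.87 and 4.77, and 5.61 and 5.45 after C59 (0.22 ± 0.11, limma adjusted p = 0.55). At Id3 it was 3.36 and 3.97, and 4.20 and 3.67 after C59, so the replicates overlapped (0.13 ± 0.12, limma adjusted p = 0.74). With the mean over the summits of a region in place of the highest, the differences turned to −0.65 at Id1 and −0.031 at Id3. Across its window Id1 had 6 of 11 regions higher in both C59 replicates and 0 lower, beside 25.9% higher and 17.0% lower of all regions. The median log2 difference of the 11 was 0.16, beside 0.03 for all regions. Only 3 of the 11 had Id1 as the nearest coding TSS, and the others lay at H13, Mcts2, Cox4i2 and Bcl2l1. The largest difference there, named after its values were seen, was in Bcl2l1 at chr2:152820044-152821104, with 3.66 and 3.89, and 5.45 and 5.07 after C59 (0.51 ± 0.11, limma adjusted p = 0.40).

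**Figure D4:**
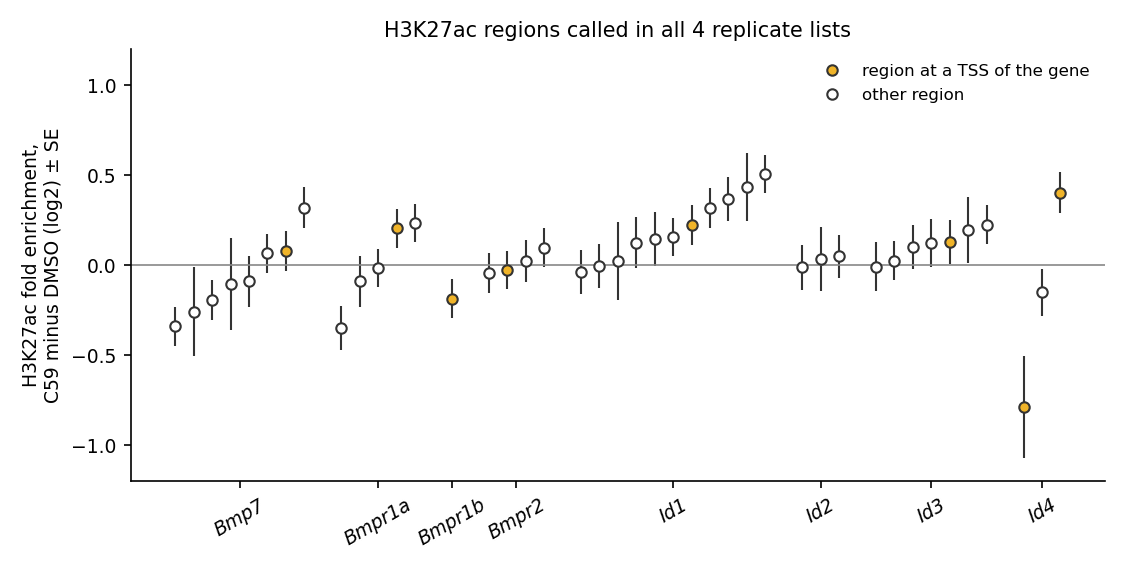
Difference in H3K27ac fold enrichment, C59 minus DMSO, on the log2 scale (centred on the library medians), for the 42 regions called in all 4 lists, with the SE of the limma fit as bars and the regions at a TSS of the gene in yellow. Bmp5 has no region in all 4 lists, the points run from −0.79 (Id4) to 0.51 (Id1), and no region passed the adjusted threshold.

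H3K27ac was then read at the sites whose β-catenin peak was not called after C59. Of the 38 summits, 13 lay in an H3K27ac region called in all 4 lists, in 13 separate regions, whose median log2 difference was 0.02 with a range from −0.26 to 0.24. For all 2974 such regions over the genome with a β-catenin summit the median was 0.05. The values that follow belong to the highest H3K27ac summit of the merged region, which need not lie at the β-catenin summit. In the region of the Bmpr1a core site the H3K27ac fold enrichment was 12.7 and 13.1 without and 15.2 and 14.6 with C59 (0.24 ± 0.11, limma adjusted p = 0.52). In the region of the Id3 core site it was 6.78 and 8.20, and 7.83 and 8.12 after C59 (0.12 ± 0.13, limma adjusted p = 0.77). In the region of the strongest Id4 summit it was 13.4 and 11.8, and 11.0 and 11.3 after C59 (−0.15 ± 0.13, limma adjusted p = 0.72). That Id4 summit lay in an H3K27ac peak of the C59 consensus list but not of the wild-type one. The strongest Bmp7 summit lay 94 bp outside an H3K27ac region, which had 3.54 and 3.71, and 3.92 and 3.55 after C59.

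The other genes of the pathway were read in the same way from a list of 20: the ligands Bmp2, Bmp4, Bmp6, Gdf5 and Gdf6, the receptors Acvr1, Acvr2a and Acvr2b, 6 Smad genes, the antagonists Nog, Grem1, Chrd and Bambi, and the targets Msx1 and Msx2. β-catenin summits were fewer in both C59 replicates at 19 of 20, beside 82.8% of all loci with a summit. A summit in a C59 replicate remained at 1 of 20, Grem1, with 0 and 1 in the C59 replicates against 6 and 6 in wild-type controls. No genome share was taken for that count. H3K27ac summits were fewer at 6 of 20 (Bmp2, Gdf5, Smad5, Nog, Grem1 and Msx1), beside 14.2% of loci, and more at 2 (Bmp6 and Acvr2a), beside 5.71%. At Msx1, a transcription factor gene induced by BMP, they numbered 8 on average of the wild-type replicates and 3.5 after C59. A promoter H3K27ac summit in all 4 lists was present at 13 of 20, beside 50.6% of all protein-coding genes. A wild-type β-catenin consensus summit lay at 6 of 20 promoters, beside 9.04%. The list was chosen with earlier results known, so these counts are a description.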

How the data were processed

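ChIP-seq lists of 8 replicates and 4 consensus lists were used; the 4 input samples were not used here. According to the submitters' notes and the paper's methods, the authors mapped reads to mm10 with Bowtie2 2.4.5, filtered on mapping quality, called peaks with MACS2 2.2.7.1 without input, and built the consensus from pooled, duplicate-free (Picard 2.27.4), subsampled replicates. The deposited values per summit are the fold enrichment defined above and the −log10 p and −log10 q that the authors' peak caller assigned. No read counts were used, so an unlisted peak may lie below the limit of its list.

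Summits on chromosomes 1 to 19, X and Y were assigned with GENCODE M21. The members, lists and alternatives were chosen with earlier results of these data known. Named were all 9 genes, the strongest β-catenin summit of each with and without a core, summits less than 1 kb from a TSS, and H3K27ac regions at a TSS. Further summits, at Bmp7, Bmpr1b and Bmpr1a, and further H3K27ac regions, such as those at Id2, were named outside this rule. A summit was still called when inside a C59 peak, and regions were shared from 1 bp of overlap. Coverage was solved from fold and p, up to a −log10 p of 250 and to within 0.01, and a region with an unsolved summit was given no coverage. H3K27ac regions of the 4 lists were merged, with the highest summit per library, and tested with limma 3.58.1 (lmFit, eBayes; R 4.3.3) on log2 fold enrichment centred on library medians, with Benjamini-Hochberg adjustment over all regions. Shares carry Wilson intervals at 95%, and a share of 0 carries the limit of 3 counts. Functions were tested on simulated data. Alternatives comprised other windows, limits, overlap rules, scalings and left-out replicates. Python 3.11.15, pandas 2.3.3, scipy 1.17.1 and pysam 0.24.0 were used.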

Additional observations from a re-analysis of the deposited data

How the results depend on the processing

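Under the alternatives fixed with the design, the count of genes with fewer β-catenin summits after C59 stayed within 1.5 times its value, and the share still called stayed at 0% under each of them. The count of genes with fewer H3K27ac summits after C59 was 2 with a window of 200 kb, and from 1 to 3 when a replicate was left out. The share of H3K27ac regions still called ranged from 75.4 to 88.7% when a replicate was left out. The lowest value came from the list of DMSO replicate 2 alone, which by construction holds more regions than the consensus. No genome share was taken under these settings. The shares with a core and in an H3K27ac peak stayed inside the intervals of the main values.

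No H3K27ac region of the 9 genes passed the adjusted threshold in any fit. The replicate numbers name samples only (the deviations of same-numbered H3K27ac replicates correlated at 0.01 over regions), and with the replicate block the median difference was 0.042 and 0 regions were called. With coverage over the library background in place of fold enrichment, an alternative chosen after seeing the data, 0 of 16232 regions were called by limma (2650 at an unadjusted p under 0.05). It gave values for 35 of the 42 member regions, of which 8 turned direction, from −0.31 to 0.21, among them the promoters of Bmp7 (−0.31) and Bmpr1b (0.14). The other 7, the Bmpr1a and Bmpr2 promoters among them, held a summit whose coverage could not be solved and were given no value. With the mean over the summits of a region 8 of 42 turned, among them the promoters of Id1 (−0.65) and Id3 (−0.031). The cause was not tested. Peak lists limit what can be seen, since a summit below the limit of a list has no value there.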

Other observations

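Of 87 merged H3K27ac regions in the 9 windows, 4 were called in both wild-type replicates and in no C59 replicate, and 2 in both C59 replicates and in no wild-type replicate. Over the genome these patterns made up 3.03% and 2.15% of 34047 regions. The 4 were distal regions of Bmp5, Bmp7 and Id2 and one next to Id1. At Id1 the pair lay side by side. A region upstream of the gene, at a fold enrichment of 2.13 and 2.49, was listed in the wild-type replicates alone. Its neighbour, at 2.29 and 2.27, was listed in the C59 replicates alone. The coverage over the library background was 23.1 and 26.0 at the first and 28.4 and 25.2 at the second, so that both places were well covered.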
